A study of Mus musculus with 6 samples.

Results

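The RNA exosome is the cell's main machine for degrading and trimming RNA from its 3′ end. A ring of subunits that have lost catalytic activity in animals carries a cap of RNA-binding subunits, and RNA is threaded through this barrel to an exonuclease bound at its base, while a second exonuclease sits on the cap side. In the nucleus it processes ribosomal and small nucleolar RNAs and removes aberrant transcripts, and in the cytoplasm it degrades mRNA bodies, including fragments left by nonsense-mediated decay (NMD), which removes mRNAs whose reading frame stops too early. In blood precursors it is known for restraining erythroid maturation.

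The 10 genes described here were taken by symbol: the cap genes Exosc1, Exosc2 and Exosc3, the ring genes Exosc4, Exosc5, Exosc7, Exosc8 and Exosc9, and the catalytic genes Exosc10 and Dis3. A probe set counted where the platform annotation gave it exactly 1 of these symbols, which held for 11 of 21640 probe sets with 1 gene symbol, and all 10 genes, of 19937 measured, had at least 1. Only Exosc3 had more than 1. The remaining ring gene, Exosc6, shares its probe set with Aars in that annotation and was not tested.

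Total RNA of primary granulocytes from C57BL/6J mice was hybridised to 6 arrays (Affymetrix Mouse Gene 1.0 ST), 3 labelled caffeine+ and 3 labelled caffeine-. Caffeine inhibits SMG1, the kinase that drives NMD, along with related kinases and the phosphodiesterases. Per the labels' protocols, cells received 15 mM caffeine for 4 hours and 2 washes, then 2 µg/ml of the transcription inhibitor actinomycin D for another 4 hours, with caffeine (caffeine+) or without it (caffeine-). Both groups therefore carry the caffeine pretreatment and the transcription block, although the source label of the caffeine- samples calls them not treated. The question of the series is what builds up in granulocytes once NMD is blocked. The age of the mice, and whether replicates came from separate animals or cultures, are not stated, so the p-values cover the array-to-array spread alone, and that spread may be technical.

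Values are the deposited log2 values, which are relative within each array. A difference is caffeine+ minus caffeine- on the log2 scale, given with its standard error, from 3 arrays in each group. Rose and fell, like higher and lower, name the sign of this difference. All 6 arrays follow the actinomycin D incubation, so no change over time was measured. The difference was tested with limma, and p was adjusted over all 19937 genes (Benjamini-Hochberg, threshold 0.05). By that rule 37.9% of all genes were called, 16.2% higher and 21.7% lower, and the groups did not overlap in 45.9% (19.5% with caffeine+ above and 26.3% with it below). Array medians lay between 6.49 and 6.60, and arrays correlated at r = 0.986 to 0.992 within groups and 0.959 to 0.965 between them, across probe sets. All 10 granulocyte markers listed were measured, with group means from 7.15 to 12.98, and all 10 fell. Of the other markers, 4 of 5 for monocytes and macrophages fell and 1 rose, 1 of 4 for B cells fell, 1 of 4 erythroid ones rose and 1 fell, 3 of 5 for basophils, eosinophils and mast cells fell, and none of 5 for T cells passed in limma (1, Cd3d, at an unadjusted p under 0.05). The mean over the granulocyte markers was 9.83 to 9.88 on the caffeine+ arrays and 10.42 to 10.55 on the caffeine- arrays, that over the monocyte markers 8.21 to 8.34 and 8.88 to 9.08, over the B cell markers 5.75 to 5.97 and 6.25 to 6.28, over the T cell markers 5.67 to 5.98 and 5.78 to 5.88, over the erythroid markers 7.21 to 7.26 and 7.22 to 7.37, and over the basophil, eosinophil and mast cell markers 8.83 to 8.89 and 9.51 to 9.66. No marker value is 0 on this scale. The part of these shifts in the results below was not tested, and fewer cells of a type cannot be told apart from less RNA per cell.

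The exosome genes did not move together. All 3 cap genes fell in the caffeine+ cells, both catalytic genes rose, and the ring split, with 2 genes higher, 2 lower and Exosc9 not past the threshold. In all, 4 of 10 rose and 5 fell, beside 16.2% higher and 21.7% lower over all genes. The groups did not overlap in 9 of 10, beside 45.9% of all genes. The median difference over the 10 was -0.19, beside -0.037 over all genes, but it lies between the genes that fell and those that rose: 7 of the 10 differed by more than 0.5 in either direction, as did 21.1% of all genes. All 10 belong to the 9968 genes above the median level. In a limma fit of those genes alone, 3070 were called higher and 3496 lower, a larger share than over all genes. Shares and ranks over all genes, dim ones included, therefore make the members stand out more. The share over 0.5 was not computed for the brighter genes. Averaged over the 10 genes, the level was 8.63 to 8.66 on the caffeine+ arrays and 8.58 to 8.68 on the caffeine- arrays, so the opposite shifts nearly cancelled.

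**Figure D1:**
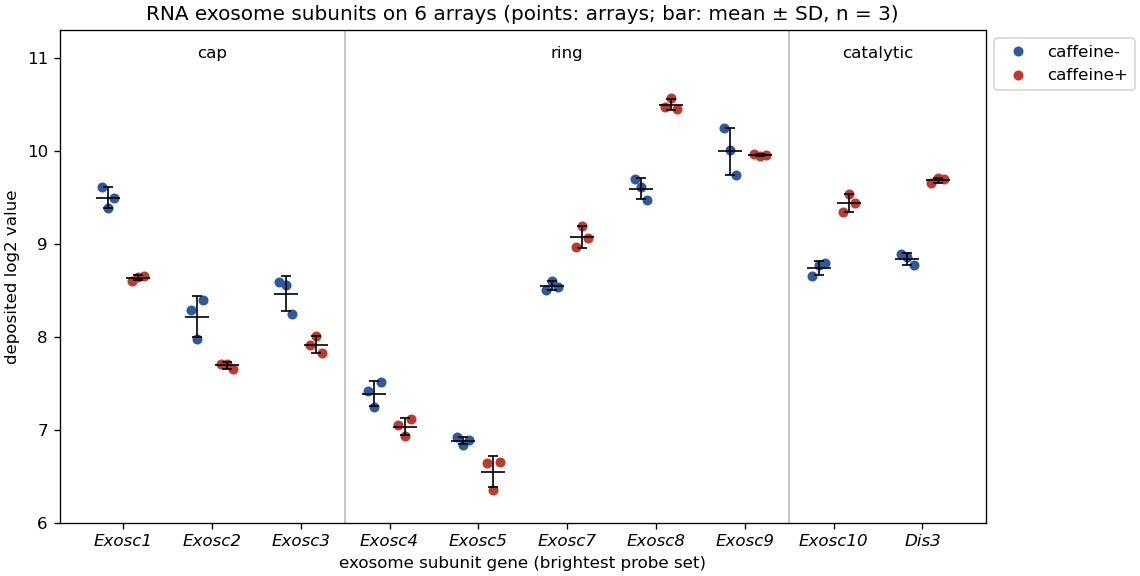
Deposited log2 values (vertical axis) of the 10 exosome genes (horizontal axis, grouped as cap, ring and catalytic) on the 3 caffeine- and 3 caffeine+ arrays, with mean and SD as bars. The caffeine+ points lie below the caffeine- points for all 3 cap genes and above them for both catalytic genes, and only for Exosc9 do the groups overlap.

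Promoter windows of the cap genes and the catalytic genes are printed because each of these sets moved as a group. They come from the RefSeq table of build GRCm38.p6, 250 bases before to 50 after a transcript start, 5′ to 3′ on the gene's strand. Capitals of 10 letters mark the NRF1 motif (GCGC, any base, then TGCGC) and capitals of 7 letters the ETS motif CCGGAAG, searched on both strands. The windows lie at chr19:41933265-41933564 (minus strand, Exosc1), chr2:31670465-31670764 (plus, Exosc2), chr4:45320567-45320866 (minus, Exosc3), chr4:148558169-148558468 (plus, the first of 2 windows of Exosc10) and chr14:99099721-99100020 (minus, Dis3).
Exosc1: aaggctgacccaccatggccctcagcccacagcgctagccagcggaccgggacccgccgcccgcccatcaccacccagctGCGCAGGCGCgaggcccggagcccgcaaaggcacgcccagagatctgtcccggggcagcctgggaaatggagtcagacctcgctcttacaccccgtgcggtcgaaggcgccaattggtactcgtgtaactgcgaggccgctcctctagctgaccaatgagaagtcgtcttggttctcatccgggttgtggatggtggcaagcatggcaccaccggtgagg
Exosc2: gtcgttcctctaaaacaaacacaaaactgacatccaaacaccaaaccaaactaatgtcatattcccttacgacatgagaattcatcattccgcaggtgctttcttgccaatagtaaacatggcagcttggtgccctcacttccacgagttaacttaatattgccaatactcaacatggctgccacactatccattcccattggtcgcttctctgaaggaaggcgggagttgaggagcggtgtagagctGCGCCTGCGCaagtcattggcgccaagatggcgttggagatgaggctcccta
Exosc3: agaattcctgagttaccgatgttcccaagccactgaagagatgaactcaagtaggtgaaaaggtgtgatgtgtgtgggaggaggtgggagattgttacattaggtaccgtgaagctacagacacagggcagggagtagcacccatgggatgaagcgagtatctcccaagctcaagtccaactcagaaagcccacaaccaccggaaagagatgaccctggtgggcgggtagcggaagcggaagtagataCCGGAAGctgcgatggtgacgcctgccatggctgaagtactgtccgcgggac
Exosc10: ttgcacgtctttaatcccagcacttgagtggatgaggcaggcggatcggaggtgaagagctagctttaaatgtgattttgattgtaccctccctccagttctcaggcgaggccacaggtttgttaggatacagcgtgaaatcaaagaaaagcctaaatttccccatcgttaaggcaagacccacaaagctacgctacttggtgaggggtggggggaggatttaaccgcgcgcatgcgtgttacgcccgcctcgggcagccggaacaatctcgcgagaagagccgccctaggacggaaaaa
Dis3: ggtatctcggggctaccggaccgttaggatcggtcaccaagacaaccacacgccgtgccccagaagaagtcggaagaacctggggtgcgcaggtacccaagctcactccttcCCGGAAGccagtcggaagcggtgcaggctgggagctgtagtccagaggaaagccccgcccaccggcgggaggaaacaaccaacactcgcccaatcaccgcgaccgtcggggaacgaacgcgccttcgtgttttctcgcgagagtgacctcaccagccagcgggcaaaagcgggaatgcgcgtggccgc

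Of the 10 genes, 8 matched a window, all but Exosc4 and Exosc9, with 9 windows. The NRF1 motif stood in the windows of Exosc1, Exosc2, Exosc5 and Exosc7, 4 of 8 genes, and in 4.6% of all 32851 windows. These 4 genes did not share a direction, since Exosc7 rose and the other 3 fell. The ETS motif stood in those of Exosc3, Dis3 and the second window of Exosc10, and in 8.86% of all windows. The GC box GGGCGG was in windows of 7 of 8 genes (35.7% of all windows), the CCAAT box CCAAT in 4 (37.4%), the E-box CACGTG in Exosc5 alone (7.15%) and the YY1 motif AAGATGGC in Exosc2 alone (2.75%). The TATA box TATAAA (13.6%) and the cAMP response element TGACGTCA (1.79%) were in none of the 9. The motif of YY1 did not overlap that of NRF1 in Exosc2. The member counts are of genes, while the percentages are of windows. The GC content of the 9 windows ran from 48.0% to 75.7%, with a median of 52.7% over all windows. Every member window but that of Exosc2 lay above that median, and the NRF1 motif, the ETS motif and the GC box are themselves rich in G and C. The shares over all windows were not matched for GC content. The motifs are descriptions of these windows, and transcription was blocked in both groups during the last incubation.

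Among the cap genes, which encode RNA-binding proteins that close one end of the barrel, Exosc1 fell most. Exosc1 stood at 8.60, 8.64 and 8.66 on the caffeine+ arrays and at 9.61, 9.39 and 9.49 on the caffeine- arrays. Every caffeine+ value was therefore below every caffeine- value, with little spread in the caffeine+ group. Exosc1 was 1.82-fold lower (log2 difference -0.86 ± 0.075, limma adjusted p = 1.36e-07), and 4.64% of all genes had a difference as low or lower.

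Exosc2, another gene of an RNA-binding cap protein, stood at 7.71, 7.71 and 7.65 on the caffeine+ arrays and at 8.28, 7.97 and 8.39 on the caffeine- arrays. The groups did not overlap, and caffeine- array 2 was the lowest of its group. Exosc2 was 1.44-fold lower (-0.52 ± 0.10, limma adjusted p = 0.000545), and 11.1% of all genes had a difference as low or lower.

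Exosc3, the gene mutated in a form of pontocerebellar hypoplasia, stood at 7.91, 8.01 and 7.82 on the caffeine+ arrays and at 8.59, 8.56 and 8.25 on the caffeine- arrays. The groups did not overlap, and caffeine- array 3 came closest to the caffeine+ values. Exosc3 was 1.46-fold lower (-0.55 ± 0.098, limma adjusted p = 0.000246), and 10.4% of all genes had a difference as low or lower. That value is from probe set 10512704, which the annotation ties to the RefSeq mRNA. The second Exosc3 probe set, 10504562, is annotated to a single cDNA clone, was dimmer (group means 6.05 and 6.15) and differed by -0.096 ± 0.11 (limma adjusted p = 0.566 in a fit of every probe set, which called 37.7% of them). With both averaged, the difference of Exosc3 was -0.32 ± 0.093 (limma adjusted p = 0.0107).

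The ring genes encode proteins related to the bacterial phosphorolytic nuclease RNase PH. Of those that rose, Exosc8 stood at 10.47, 10.57 and 10.46 on the caffeine+ arrays and at 9.70, 9.62 and 9.47 on the caffeine- arrays. The groups lay well apart. Exosc8 was 1.87-fold higher (0.90 ± 0.069, limma adjusted p = 3.44e-08), the largest difference of the 10 in either direction, and 3.49% of all genes had a difference as high or higher.

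Exosc7 stood at 8.96, 9.20 and 9.06 on the caffeine+ arrays and at 8.51, 8.60 and 8.53 on the caffeine- arrays. All caffeine+ values were above all caffeine- values. Exosc7 was 1.44-fold higher (0.53 ± 0.078, limma adjusted p = 4.42e-05), and 8.83% of all genes had a difference as high or higher.

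The ring genes that fell moved less. Exosc4 stood at 7.05, 6.93 and 7.11 on the caffeine+ arrays and at 7.42, 7.24 and 7.51 on the caffeine- arrays. The groups did not overlap, but caffeine- array 2 lay only slightly above caffeine+ array 3. Exosc4 was 1.28-fold lower (-0.35 ± 0.099, limma adjusted p = 0.00862), and 17.2% of all genes had a difference as low or lower.

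Exosc5 stood at 6.64, 6.35 and 6.65 on the caffeine+ arrays and at 6.92, 6.84 and 6.89 on the caffeine- arrays. Caffeine+ array 2 was the low value of its group. Exosc5 was 1.26-fold lower (-0.34 ± 0.10, limma adjusted p = 0.0178), and 18.0% of all genes had a difference as low or lower. Without caffeine+ array 2 the adjusted p of Exosc5 was 0.125 (difference -0.24) and that of Exosc4 0.0518 (-0.31), so 3 members and not 5 were then lower, and without caffeine- array 1 the adjusted p of Exosc5 was 0.0543. Over 16 alternatives the adjusted p ran from 0.0028 to 0.0518 for Exosc4 and from 0.00772 to 0.125 for Exosc5.

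Exosc9, known as an autoantigen in patients with polymyositis and scleroderma overlap, stood at 9.97, 9.94 and 9.96 on the caffeine+ arrays and at 10.25, 10.01 and 9.74 on the caffeine- arrays. The caffeine- values spread around the tight caffeine+ values, and the groups overlapped. The difference was -0.043 ± 0.095 (limma adjusted p = 0.801), with a 95% confidence interval from -0.25 to 0.16, and 48.9% of all genes had a difference as low or lower. The estimate changed sign with arrays centred on their medians (0.016) and without caffeine- array 1 (0.082).

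Both catalytic genes rose. Dis3, the processive exonuclease and endonuclease at the base of the barrel and a gene recurrently mutated in multiple myeloma, stood at 9.65, 9.70 and 9.69 on the caffeine+ arrays and at 8.89, 8.86 and 8.77 on the caffeine- arrays. The groups lay well apart. Dis3 was 1.795-fold higher (0.84 ± 0.067, limma adjusted p = 5.72e-08), and 4.17% of all genes had a difference as high or higher.

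Exosc10, the distributive exonuclease of the nuclear exosome, stood at 9.34, 9.53 and 9.44 on the caffeine+ arrays and at 8.65, 8.77 and 8.79 on the caffeine- arrays. The groups did not overlap. Exosc10 was 1.62-fold higher (0.70 ± 0.075, limma adjusted p = 1.47e-06), and 6.06% of all genes had a difference as high or higher.

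**Figure D2:**
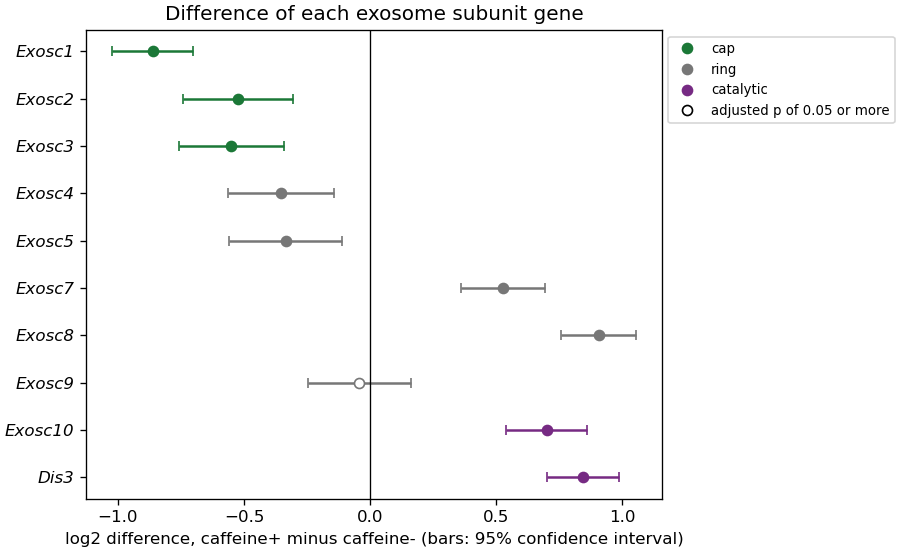
Log2 difference, caffeine+ minus caffeine- (horizontal axis), of each exosome gene (vertical axis), with its 95% confidence interval from limma as bars and an open point where the adjusted p is 0.05 or more. The intervals of Exosc1, Exosc2, Exosc3, Exosc4 and Exosc5 lie below 0, those of Exosc7, Exosc8, Exosc10 and Dis3 above it, and that of Exosc9 spans it.

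The roles separated on every array. With each gene centred on its mean over the 6 arrays, the mean of the 3 cap genes was -0.33, -0.28 and -0.36 on the caffeine+ arrays and 0.43, 0.24 and 0.31 on the caffeine- arrays. The mean of the catalytic genes was 0.32, 0.44 and 0.39 against -0.40, -0.36 and -0.39. The mean of the 5 ring genes was 0.068, 0.046 and 0.096 against 0.0047, -0.091 and -0.12. Cap and catalytic means lay on opposite sides, and the ring mean stayed near its centre because its genes went both ways. No test was made of these means over members, which restate the values given above for each gene.

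**Figure D3:**
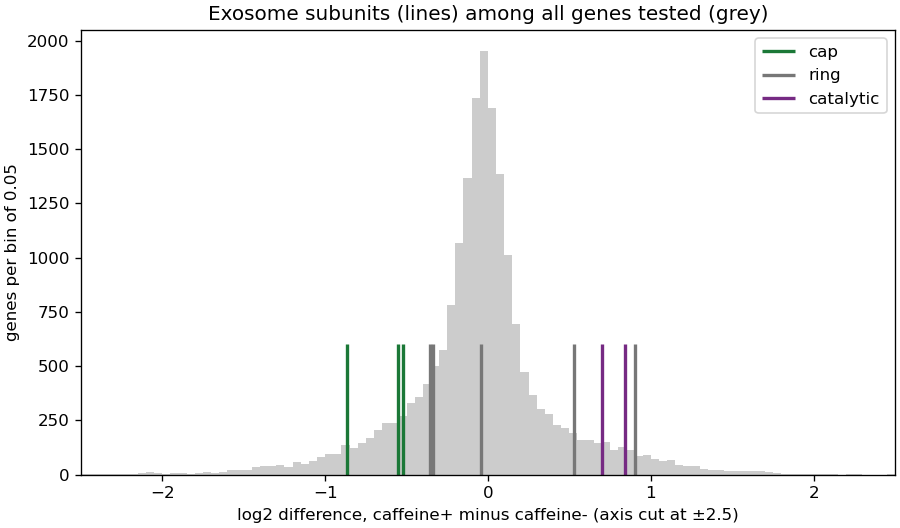
Number of genes (vertical axis) by log2 difference in bins of 0.05 (horizontal axis, its far ends not shown) for all 19937 genes in grey, with a line for each exosome gene coloured by role; the height of the lines carries no value. The 3 cap genes lie on the lower side and both catalytic genes on the upper side, with the ring genes on both.

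The genes also differed in position and size in the reference annotation (GRCm38.p6). No source used here gives the array's own build, so these positions describe the genes, not the probes. The 10 genes lie on 8 chromosomes, with Exosc3 and Exosc10 on chromosome 4 and Exosc8 and Exosc9 on chromosome 3. The genes that fell span 3274 to 10638 bases, and those that rose span 6686 (Exosc8), 22899 (Exosc7), 23147 (Dis3) and 23983 (Exosc10) bases. Exosc8 is therefore the member that rose from a short span. Over all genes with a span in the table, the median span was 36510 bases among those higher and 13761 among those lower. Of the genes under the overall median span of 17706 bases, 8.11% were higher and 25.6% lower, and of the others 24.3% were higher and 17.8% lower. The part of span in the members' directions was not tested.

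Some members share their locus with another gene. Dis3, Exosc8 and Exosc2 lie on the opposite strand to the gene they overlap, and no strand was available for Exosc4 and Exosc9. Whether probes fall in the shared parts, and whether the overlapping gene adds to a member's signal, was not tested. The whole span of Exosc4 lies within that of Oplah, which differed by -0.17 ± 0.10 (limma adjusted p = 0.228). Exosc9 overlaps the cyclin A gene Ccna2 by 863 bases, and Ccna2 was 1.31-fold higher (0.39 ± 0.062, limma adjusted p = 9.66e-05). Dis3 overlaps Pibf1 by 357 bases at their divergent starts, and Pibf1 rose as well, by 2.13-fold (1.09 ± 0.094, limma adjusted p = 1.36e-07). Exosc8 overlaps Supt20 by 85 bases (difference of Supt20 0.045 ± 0.062, limma adjusted p = 0.664), and Exosc2 overlaps the long non-coding gene Gm13427, which was not measured, by 4987 bases.

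Close neighbours without overlap did not always share a member's direction. Zdhhc3, which starts 36 bases from Exosc7 on the other strand, fell 1.35-fold (-0.43 ± 0.082, limma adjusted p = 0.000478) while Exosc7 rose. Alg5, 174 bases from the start of Exosc8 and also divergent, fell 1.30-fold (-0.38 ± 0.071, limma adjusted p = 0.000404) while Exosc8 rose. Zdhhc16, 21 bases from Exosc1 and divergent, differed by 0.096 ± 0.064 (limma adjusted p = 0.292) while Exosc1 fell. Bckdha, 370 bases from Exosc5 and divergent, fell 1.35-fold like Exosc5, and the kinase gene Mtor, which ends 733 bases before Exosc10 on the same strand, was 2.495-fold higher (1.32 ± 0.084, limma adjusted p = 5.1e-09). These neighbours were named for their distance of under 1000 bases. The other such neighbours were Trmt10b beside Exosc3 (-0.30 ± 0.082, adjusted p = 0.00821) and Gpaa1 beside Exosc4 (0.18 ± 0.089, adjusted p = 0.147).

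The exosome needs cofactors to find and unwind its RNAs. Of 18 listed further subunits and cofactors 17 had a probe set of their own. Of the 17, 12 were higher, 5 missed the threshold and none fell (limma; 0 lower also at an unadjusted p under 0.05 and under each of 16 alternative limma settings), with a median difference of 0.69. Among all genes 16.2% were higher. All 17 belong to the 9968 genes above the median level, of which 3070 were higher in a limma fit of those genes alone, a larger share. Unlike the 10 subunit genes, which went both ways, these genes had 14 positive and 3 negative estimates. Their mean level was 9.47 to 9.49 on the caffeine+ arrays and 8.65 to 8.75 on the caffeine- arrays.

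Dis3l, the cytoplasmic counterpart of Dis3, stood at 8.19, 8.08 and 8.34 on the caffeine+ arrays and at 7.69, 7.38 and 7.47 on the caffeine- arrays, and rose like the nuclear catalytic genes (0.69 ± 0.099, limma adjusted p = 3.13e-05). All 4 genes of the TRAMP complex, which oligoadenylates nuclear RNAs for the exosome, rose. The helicase gene Mtrex, also a part of the other nuclear adaptors, stood at 10.88, 10.80 and 10.85 against 9.18, 9.36 and 8.91, and was 3.24-fold higher (1.69 ± 0.090, limma adjusted p = 8e-10). The poly(A) polymerase genes Tent4b and Tent4a were 2.53-fold and 2.13-fold higher, and the zinc finger gene Zcchc7, which had the highest difference of all genes, 6.82-fold, with its second probe set also higher (1.88 ± 0.10).

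The nuclear exosome targeting complex, which delivers short unprocessed transcripts, also rose, with the scaffold gene Zcchc8 1.76-fold and the RNA-binding gene Rbm7 1.498-fold higher. In the poly(A) tail connection Zfc3h1, the zinc finger linker, was 2.20-fold higher (1.14 ± 0.059, limma adjusted p = 6.48e-10), whereas the poly(A)-binding gene Pabpn1 differed by -0.076 ± 0.054 (adjusted p = 0.332). Of the ribosomal RNA processing partners of the nuclear exosome, Mphosph6 was 1.55-fold higher by its brighter probe set and C1d differed by -0.036 ± 0.081 (adjusted p = 0.805). The dimmer Mphosph6 probe set, with group means of 3.23 and 2.97, differed by 0.26 ± 0.16 (adjusted p = 0.269 in a fit of every probe set). Of the factors that link the cap-binding complex to decay, Zc3h18 was 1.41-fold higher and Srrt differed by 0.075 ± 0.057 (adjusted p = 0.374).

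In the cytoplasm the SKI complex feeds mRNA into the exosome. Its helicase gene Skiv2l differed by -0.12 ± 0.091 (limma adjusted p = 0.378) and its scaffold gene Ttc37 by 0.026 ± 0.086 (adjusted p = 0.869), while Wdr61, whose protein also serves the transcription elongation complex PAF1, was 1.85-fold higher and Hbs1l, whose locus encodes the bridge between SKI and the exosome, was 2.10-fold higher (1.07 ± 0.065, limma adjusted p = 3e-09). A dimmer Hbs1l probe set rose as well (0.61 ± 0.075). The probe sets do not separate the Hbs1l isoforms here.

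The other 3′ exoribonucleases showed no common direction. All 13 listed were measured, and 3 of them rose, 3 fell and 7 missed the threshold. Among all genes 16.2% were higher and 21.7% lower. All but Dis3l2 and Toe1 belong to the 9968 genes above the median level. In a limma fit of those genes alone 3070 were higher and 3496 lower, larger shares than over all genes. The shares of the 13 are close to those over all genes and lie under those of the brighter genes. The median difference of the 13 was 0.035, beside -0.037 over all genes. Rexo1 was 1.94-fold, the deadenylase subunit gene Pan2 1.46-fold and the histone mRNA exonuclease gene Eri1 1.33-fold higher. Rexo2, a mitochondrial oligoribonuclease, was 1.95-fold lower (-0.96 ± 0.065, limma adjusted p = 9.28e-09), the interferon-induced Isg20 1.68-fold lower and Eri3 1.22-fold lower. The call of Eri3 was lost without caffeine+ array 1, caffeine+ array 2 or caffeine- array 1 and with arrays centred on their medians (adjusted p 0.0684, 0.0626, 0.0858 and 0.0514). Over 16 alternatives its adjusted p ran from 0.00764 to 0.0858. The relatives of exosome subunits in this list did not pass: Dis3l2, a cytoplasmic homologue of Dis3, differed by 0.016 ± 0.11 (95% confidence interval -0.21 to 0.24), and Pnpt1, the mitochondrial enzyme related to the exosome ring, by 0.17 ± 0.089 (-0.017 to 0.36).

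**Figure D4:**
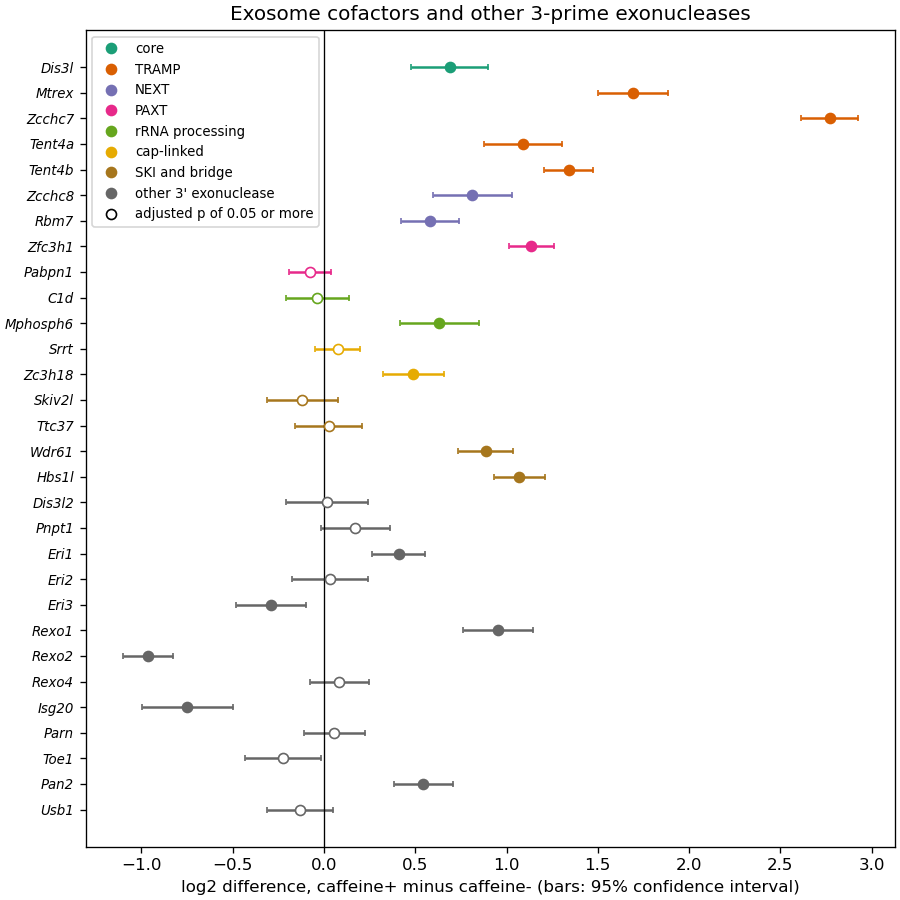
Log2 difference, caffeine+ minus caffeine- (horizontal axis), of 17 further exosome subunits and cofactors and 13 other exoribonucleases (vertical axis), coloured by complex, with 95% confidence intervals from limma as bars and open points where the adjusted p is 0.05 or more. Of the cofactors 12 lie above 0 with filled points and none below, while the other exonucleases have 3 filled points on each side.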

How the data were processed

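RNA was extracted with Trizol and labelled from 300 ng, per the labels' protocols. The deposited table gives 34760 probe sets on 6 arrays. The authors deposited values taken here as log2 and normalized between arrays, from their range of 1.90 to 13.98 and the like medians; no source used here gives how they were summarized and normalized. No detection p-values were used, so a dim value was not read as absence. Precision is limited by the number of arrays. Probe sets with 1 symbol (21640; 1321 have several and 11799 are unlisted) were renamed through gene identifiers found for 21553 of them in the GRCm38.p6 gene table. Each gene was represented by its brightest probe set over all arrays, and limma 3.58.1 under R 4.3.3 compared the groups (eBayes with intensity trend, no filter on dim genes, two-sided). Tested on simulated data with 200 changed genes among 19937, the fit recovered 53.0% of changes of 0.5 and 97.0% of changes of 1, and 3.23% of calls were false. That simulation used independent normal noise and a far smaller share of changed genes than the 37.9% called here. Its rates therefore check the fit and do not carry over to these data. The members, the gene lists and the tests were chosen with earlier results of these data known; every member is named, list genes were matched on current or older symbols, and neighbours were named by distance. Marker counts are over the markers analysed here. Replicate numbers were not taken to pair arrays. Deviations from the group means correlated at -0.028, 0.19 and 0.29 between arrays of the same number, and at -0.277 to 0.125 between arrays of different numbers. These values do not settle whether arrays are paired, and a fit with the replicate number as a block is given below. The alternatives were the replicate block, quantile normalization, median centring, 2 filters on level, other uses of several probe sets, other eBayes settings, array weights and each array left out.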

Additional observations from a re-analysis of the deposited data

How the results depend on the processing

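Each of the 10 member differences was recomputed under 16 alternatives, 160 values in all. Of these, 155 kept their direction and their side of the threshold, 3 kept the direction and lost the call, and 2 changed sign, both for Exosc9, which was not called (0.016 with arrays centred on their medians, 0.082 without caffeine- array 1; -0.17 to 0.082 over the 6 arrays left out in turn). The replicate block, the filters on level, the other eBayes settings and the fit of every probe set leave a member's estimate as it is. Under these settings only the call could change, so the kept directions carry no information there. Averaging a gene's probe sets could alter the estimate of Exosc3 alone. The number of members called lower was 3 to 5 when single arrays were left out, with 3 without caffeine+ array 2, and 4 members were called higher under every alternative. With the replicate number as a block, 4 members were higher and 5 lower, as without it, 12 cofactors were higher and none lower, and over all genes 3388 were higher and 4660 lower; the block changed no call of a gene of these lists. Among the uncalled other genes, estimates changed sign for C1d with arrays centred on their medians (0.023), Rexo4 after quantile normalization (-0.012), and, without caffeine+ array 1 and without caffeine- array 3, for Ttc37 (-0.0071 and -0.048), Dis3l2 (-0.029 and -0.062) and Eri2 (-0.026 and -0.014), whose leave-one-out estimates reached as high as 0.066, 0.068 and 0.0999. The difference of Pnpt1, 0.17 and not called, was 0.26 without caffeine- array 1 (limma adjusted p = 0.0225, the lowest of 16 alternatives) and 0.058 without caffeine- array 3 (0.571, the highest). Signal over background could not be assessed. Exosc4 and Exosc5 had the lowest levels of the members, though both lie above the median level of all genes. How far background affects their small differences is not known.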
